A study of Caenorhabditis elegans with 6 samples.

Results

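The transcripts described here encode the enzymes that lengthen fatty acids in Caenorhabditis elegans and those that make and use its branched-chain fatty acids. The set holds 10 of the 46245 genes listed in the data: 8 elongases of the elo family, the ketoacyl reductase gene let-767 and the acyl-CoA synthetase gene acs-1. Members were chosen by name, and all 10 names were present. RNA of whole worms was sequenced from 2 strains, with 3 libraries each, collected at the late L4 stage, the last larval stage, after growth at 20 °C. The strain DCL289 carried the alleles ptr-8(mkc18), eat-2(ad465) and acs-20(tm3232). The strain DCL33 lacked the ptr-8 allele and had the other two, and is the control. Both strains therefore share the eat-2 lesion, which slows pharyngeal pumping and is used as a model of dietary restriction, and the lesion in acs-20, a gene of the fatty acid transport protein family with a role in the cuticle barrier. ptr-8 encodes a patched-related membrane protein, and the comparison addresses what its mutation changes in the shared background.

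Fatty acids are lengthened in a cycle of 4 reactions at the endoplasmic reticulum. An elongase condenses the acyl chain with a malonyl unit, a ketoacyl reductase (let-767) reduces the product, a dehydratase (hpo-8) removes water and an enoyl reductase (art-1) completes the cycle. The elongase selects the chain, while the other enzymes are shared. Worms also build monomethyl branched-chain fatty acids from breakdown products of branched-chain amino acids. These acids are needed for larval growth, they enter the sphingoid bases of the worm, and elo-5, elo-6, let-767 and acs-1 are needed to make or use them.

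Levels are fragments per kilobase of transcript, relative to the mapped fragments of a library (FPKM), divided by a factor per library, and means are given ± SD over n = 3 libraries per strain. Fold changes are DCL289 over DCL33 on the log2(scaled FPKM + 1) scale, which understates changes of low genes. Adjusted p-values are from limma with Benjamini-Hochberg adjustment over 15206 tested genes, and 0.05 was the threshold. Between 14883 and 15461 genes per library reached 1 FPKM, and the scaling factors ran from 0.869 to 1.33. ptr-8 had 4.52, 5.13 and 5.73 scaled FPKM in the DCL289 libraries, against 23.7, 23.4 and 18.1 in the DCL33 libraries (adjusted p = 0.00532, limma). acs-20 had 43.0 to 50.6 scaled FPKM in DCL289 and 48.96 to 69.0 in DCL33 (adjusted p = 0.271), and eat-2 was at or below 0.217 in every library. No source used here says which parts of these genes the alleles remove, and whole-gene levels therefore do not check them. Whether the libraries of a strain stem from separate cultures is not in the labels, so the p-values cover the spread among these libraries, and that spread may be technical. In RNA of whole worms, fewer cells of a type and less RNA per cell cannot be told apart.

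None of the 10 members passed the test in either direction. Over all genes tested, 2.22% passed (338 genes), with 0.349% higher and 1.87% lower in DCL289. The members' log2 fold changes ran from -0.30 (elo-9) to 0.22 (elo-2), with 4 above and 6 below 0. Their median was -0.07, against 0.01 for all genes tested. The 95% intervals of all 10 lay inside a 2-fold change in either direction, and their outermost bounds were 0.584-fold (elo-6) and 1.92-fold (elo-2). Of the 10 intervals, 9 held 0. At an unadjusted p below 0.05 there was 1 member, elo-9, and 20.7% of all genes tested were below that limit.

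**Figure D1:**
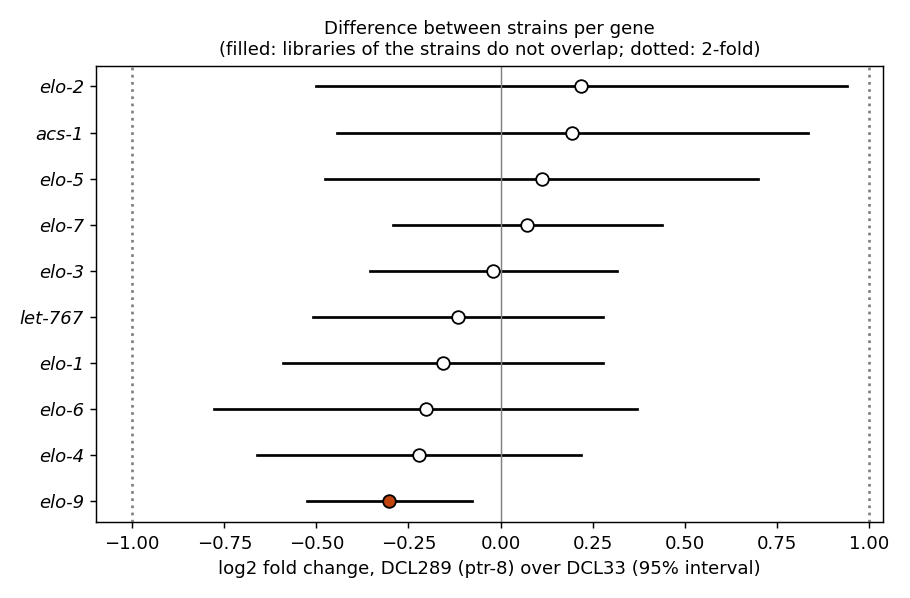
Log2 fold change of each gene, DCL289 over DCL33, with its 95% interval from limma (3 libraries per strain); the dotted lines mark a 2-fold change. All 10 intervals lie between the dotted lines, and elo-9, at -0.30, is the one filled point, whose libraries do not overlap between strains.

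elo-5 and elo-6 encode the elongases of branched-chain acid synthesis. elo-6 (WBGene00001244, chromosome IV, 5386627 to 5388559, minus strand, 3 exons) was the most abundant member. It had 444, 646 and 619 scaled FPKM in the DCL289 libraries, against 539, 872 and 577 in the DCL33 libraries. The strains overlapped, and the highest library was replicate 2 in each. Means were 569 ± 110 in DCL289 and 662 ± 182 in DCL33 (log2 fold change -0.20, SE 0.24, adjusted p = 0.658, limma).

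elo-5 (WBGene00001243, chromosome IV, 5374598 to 5377275, minus strand, 4 exons) lies 9511 bp from elo-6 in the Ensembl annotation, on the same strand, with 3 protein-coding genes between them. Its scaled FPKM was 264, 361 and 354 in the DCL289 libraries, against 229, 411 and 282 in the DCL33 libraries. Both the highest and the lowest value belonged to DCL33, so its libraries enclosed those of DCL289. Mean levels were 326 ± 54.3 in DCL289 and 308 ± 93.6 in DCL33 (log2 fold change 0.11, SE 0.24, adjusted p = 0.824, limma). Exons of elo-5 share 162 bp, 17.6% of their length, with F41H10.3 on the other strand, which was at 14.5 to 18.7 scaled FPKM. No source used here says whether the libraries keep strand, and reads in that overlap could come from either gene. The same holds for shorter overlaps with genes on the other strand in elo-7 (5.60% of exon length), elo-3 (2.81%), elo-4 (1.70%) and acs-1 (0.791%). The partner of elo-4, ufc-1, was at 183 to 257 scaled FPKM.

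acs-1, the synthetase that activates branched-chain acids, had 59.9, 86.3 and 84.8 scaled FPKM in the DCL289 libraries, against 52.3, 95.8 and 57.9 in the DCL33 libraries. As for elo-5, the DCL33 libraries held both extremes. The gene (WBGene00018488) lies on chromosome V, 6524989 to 6532091, on the plus strand, with up to 9 exons in 3 annotated transcripts. Strain means were 77.0 ± 14.8 in DCL289 and 68.7 ± 23.6 in DCL33 (log2 fold change 0.19, SE 0.26, adjusted p = 0.708, limma).

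elo-1 and elo-2 encode elongases of straight-chain acids. elo-1 acts on polyunsaturated acids, and elo-2 also lengthens palmitate. elo-1 (WBGene00001239, chromosome IV, 9526359 to 9528352, plus strand, up to 4 exons) had 376, 427 and 409 scaled FPKM in the DCL289 libraries, against 417, 583 and 373 in the DCL33 libraries. The DCL289 libraries lay within 1.14-fold of each other and inside the range of the other strain, whose libraries spanned 1.56-fold. Means were 404 ± 25.8 in DCL289 and 458 ± 111 in DCL33 (log2 fold change -0.16, SE 0.18, adjusted p = 0.655, limma).

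elo-2 (WBGene00001240, chromosome IV, 17466060 to 17467408, minus strand, 5 exons) had the widest spread of the members within DCL33. Scaled FPKM was 162, 212 and 228 in the DCL289 libraries, against 138, 268 and 133 in the DCL33 libraries. In DCL33, replicate 2 stood about 2.01-fold above the lowest library, while the other two were nearly equal and below every DCL289 library. Mean levels were 200.5 ± 34.3 in DCL289 and 179.8 ± 76.3 in DCL33 (log2 fold change 0.22, SE 0.30, adjusted p = 0.708, limma). Without DCL33 replicate 2 the log2 fold change was 0.54 (adjusted p = 0.265), and without the other libraries in turn it was between 0.043 and 0.37.

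Roles are less well defined for the other 4 elongases. elo-3 (WBGene00001241, chromosome IV, 7237728 to 7239896, plus strand, 4 exons) had 131, 182 and 151 scaled FPKM in the DCL289 libraries, against 145, 162 and 160 in the DCL33 libraries. The strain means were the closest of any member in ratio, 155 ± 25.8 in DCL289 and 156 ± 9.45 in DCL33 (log2 fold change -0.02, SE 0.14, adjusted p = 0.947, limma).

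elo-4 (WBGene00001242, chromosome III, 9332327 to 9334274, minus strand, 5 exons) was at 48.1, 68.5 and 50.8 scaled FPKM in the DCL289 libraries, against 53.8, 66.4 and 74.8 in the DCL33 libraries. The strains overlapped, with 2 of the 3 DCL289 libraries below all of DCL33 (log2 fold change -0.22, SE 0.18, adjusted p = 0.522, limma). elo-7 (WBGene00001245, chromosome IV, 9529987 to 9531227, plus strand, 6 exons) lies 1610 bp from elo-1 in the Ensembl annotation, on the same strand, with no protein-coding gene between them. It was at 21.98, 22.6 and 21.3 scaled FPKM in the DCL289 libraries, against 23.4, 16.5 and 23.4 in the DCL33 libraries. Here replicate 2 was the lowest DCL33 library, opposite to elo-1 beside it (elo-7 log2 fold change 0.07, SE 0.15, adjusted p = 0.817, limma).

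elo-9 (WBGene00001247, chromosome II, 14959376 to 14964110, minus strand, 5 exons) was the one member whose strains did not overlap. It had 27.4, 28.8 and 27.4 scaled FPKM in the DCL289 libraries, against 31.6, 37.0 and 35.4 in the DCL33 libraries. The deposited bounds of elo-9 had a half-width of 5.93 to 10.3% of the FPKM, wider than its coefficient of variation of 2.81% in DCL289. Those of DCL289 replicate 2 and DCL33 replicate 1, the nearest libraries of the strains, overlapped. Mean levels were 27.9 ± 0.782 in DCL289 and 34.6 ± 2.76 in DCL33, 19.6% less in DCL289 (log2 fold change -0.30, SE 0.09, 95% interval -0.53 to -0.08). The adjusted p was 0.159 (unadjusted p = 0.0163, limma), so elo-9 did not pass, and it ranged from 0.0799 to 0.838 over the 12 alternative settings. Of all genes tested, 27.6% had libraries that did not overlap between strains, 13.7% with DCL289 lower, and 1 member of 10 is no more than either share.

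let-767 (WBGene00002891, chromosome III, 6338508 to 6340228, minus strand, up to 5 exons), the reductase of the cycle, had 265, 322 and 313 scaled FPKM in the DCL289 libraries, against 288, 402 and 294 in the DCL33 libraries. The strains overlapped, and replicate 2 was highest in each (means 300.2 ± 30.4 in DCL289 and 328 ± 64.6 in DCL33, log2 fold change -0.11, SE 0.16, adjusted p = 0.724, limma).

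**Figure D2:**
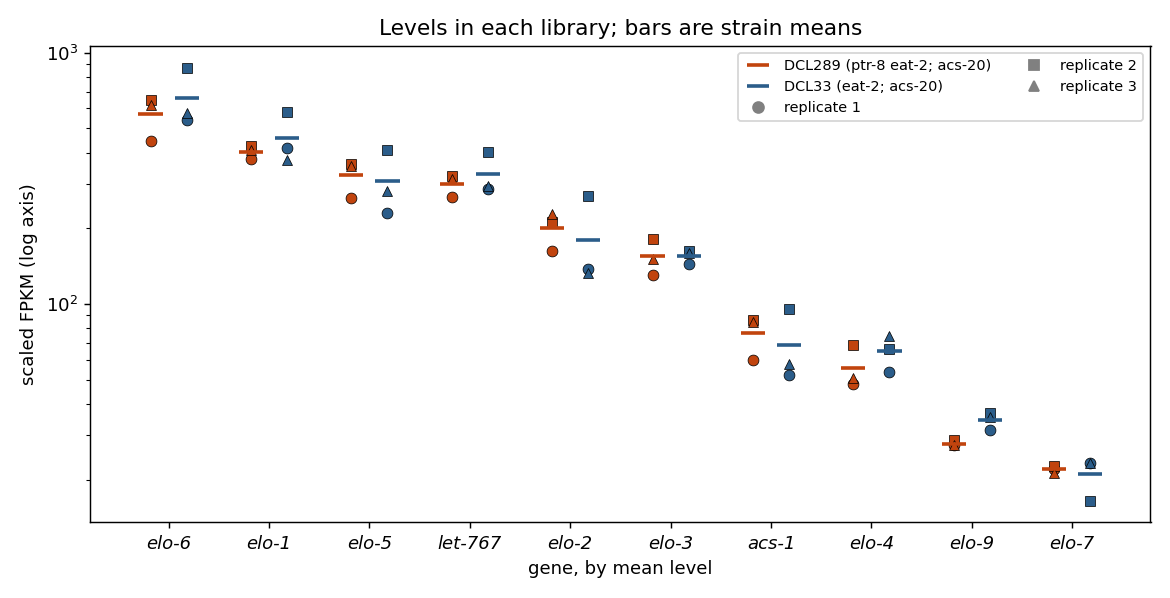
Scaled FPKM of each gene in the 6 libraries on a log axis, with genes ordered by mean level, DCL289 left of DCL33 for each gene and a bar at each strain's mean (n = 3). The strains overlap for every gene but elo-9, and the DCL33 square, replicate 2, stands highest among that strain's libraries for 8 genes.

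FPKM is scaled to transcript length, so levels can be set side by side between genes. Mean scaled FPKM over the 6 libraries ordered the members as elo-6 (616), elo-1 (431), elo-5 (317), let-767 (314), elo-2 (190.1), elo-3 (155), acs-1 (72.8), elo-4 (60.4), elo-9 (31.2) and elo-7 (21.5). The most abundant member stood at rank 431 of all genes tested and the least abundant at rank 6994. In 6 of the 9 steps of this order the higher gene was above the next in all 6 libraries. The exceptions were elo-5 over let-767 (3 libraries), elo-2 over elo-3 (4) and acs-1 over elo-4 (4). In the last of these the DCL289 libraries all had acs-1 above elo-4, and DCL33 had 1 such library.

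Shares of the elongase transcripts were set side by side within each library. elo-6 made up 30.1, 33.2 and 33.3% of the summed FPKM of the 8 member elongases in the DCL289 libraries, against 34.1, 36.1 and 34.8% in the DCL33 libraries. elo-5 made up 17.9, 18.5 and 19.04% in DCL289, against 14.5, 17.04 and 17.01% in DCL33. The branched-chain pair together made up 50.7 ± 2.32% in DCL289 and 51.2 ± 2.27% in DCL33, a difference smaller than the spread between libraries. With elo-1 and elo-2 added, 4 genes held 85.2 ± 1.16% of the sum in DCL289 and 84.9 ± 3.13% in DCL33. The sum itself was 1473, 1947 and 1860 scaled FPKM in the DCL289 libraries, against 1577, 2415 and 1659 in the DCL33 libraries.

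**Figure D3:**
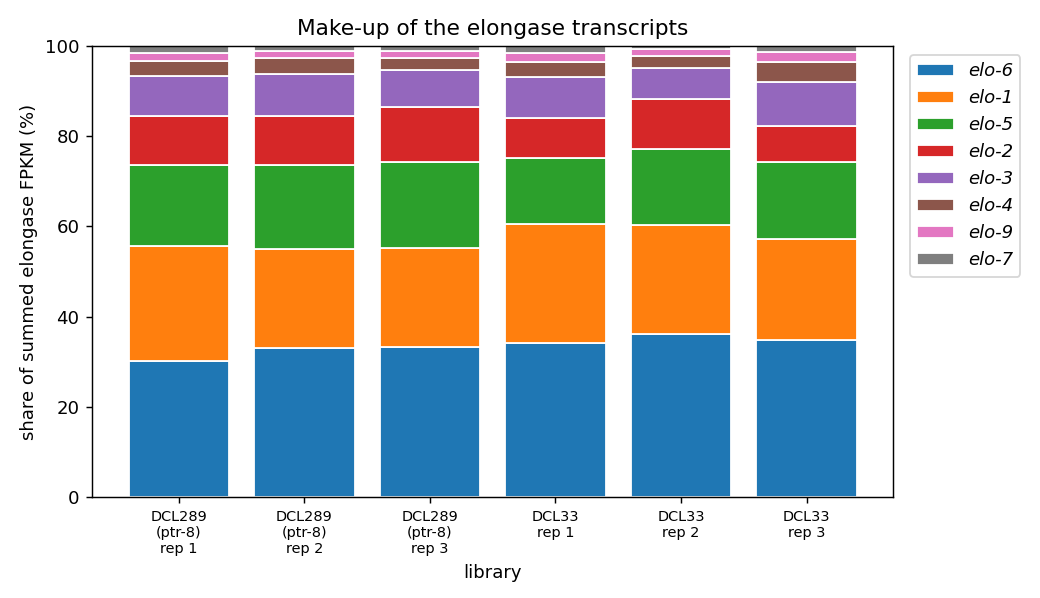
Share of each elongase in the summed FPKM of the 8 member elongases, in percent, for each of the 6 libraries (DCL289 left). elo-6 is the largest block in every library, from 30.1% to 36.1%, and elo-6, elo-1, elo-5 and elo-2 together fill 82.3% to 88.3% of each bar.

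Ratios between members do not depend on the scaling of a library. The ratio of elo-5 to elo-6 was 0.594, 0.558 and 0.573 in the DCL289 libraries, against 0.426, 0.472 and 0.489 in the DCL33 libraries. Each DCL289 library was above each DCL33 library. The same held for elo-2 over elo-6 (0.328 to 0.368 in DCL289, 0.231 to 0.307 in DCL33) and acs-1 over elo-6 (0.134 to 0.137 in DCL289, 0.0972 to 0.1099 in DCL33). In all, 5 of the 45 ratios between members, 11.1%, did not overlap between strains, while 26.5% of all ratios between tested genes above 0 in every library did not. The exact two-sided permutation test of 3 against 3 libraries cannot go below p = 0.1, and the smallest p adjusted over the 45 ratios was 0.643. These ratios share genes and are not independent.

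The shared enzymes of the cycle were at nearly equal levels to each other in every library. hpo-8, the dehydratase, had 260.1, 341 and 281 scaled FPKM in the DCL289 libraries, against 302, 410 and 281 in the DCL33 libraries. art-1, the enoyl reductase, had 272, 349 and 313 in DCL289, against 303, 426 and 302 in DCL33. Neither passed the test (log2 fold changes -0.16 and -0.13, adjusted p = 0.648 and 0.706, limma). The ratio of art-1 to let-767 ran from 0.999 to 1.08 over the 6 libraries, and that of hpo-8 to let-767 from 0.897 to 1.06. The coefficients of variation of the ratios were 2.89% and 6.17%, against 15.2% for the level of let-767 itself. let-767 also moved with the summed elongases, at 0.180, 0.165 and 0.168 of their sum in the DCL289 libraries and 0.182, 0.167 and 0.177 in the DCL33 libraries. hpo-8 and art-1 were picked from their list after their values were seen. How often other pairs of genes keep ratios as steady as these was not computed.

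**Figure D4:**
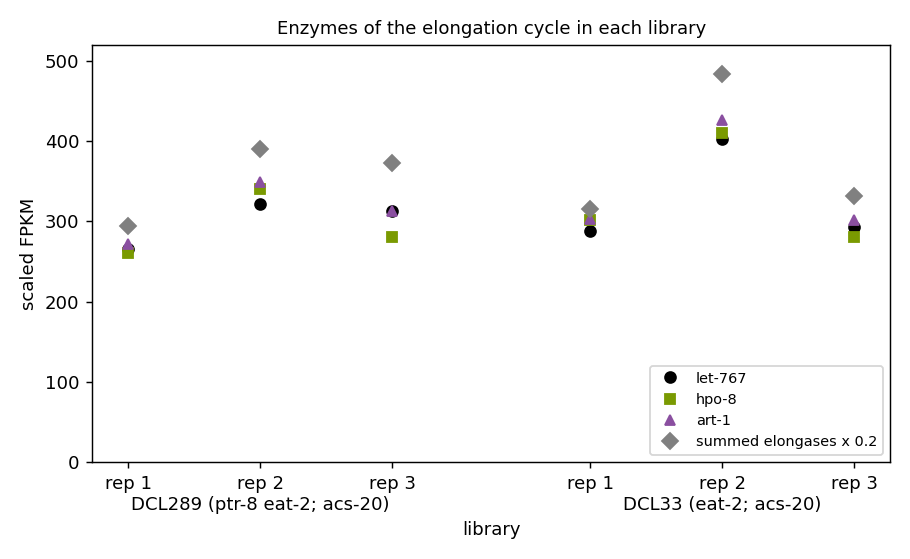
Scaled FPKM of let-767, hpo-8 and art-1, and the summed FPKM of the 8 member elongases multiplied by 0.2, in the 6 libraries (DCL289 left). The 3 single genes lie close together in every library, between 260.1 and 426, and replicate 2 is the highest library of each strain.

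Most members had the same highest and the same lowest library within a strain. Within DCL289, replicate 2 was highest for 9 members (all but elo-2) and replicate 1 was lowest for 9 (all but elo-7). Several of these DCL289 ranks were near-ties within the deposited bounds. Replicates 2 and 3 had 361 and 354 scaled FPKM for elo-5, 322 and 313 for let-767, and 86.3 and 84.8 for acs-1. For elo-9, replicates 1 and 3 were at 27.39 and 27.41. DCL289 replicate 2 also had the largest scaling factor, 1.33. Within DCL33, replicate 2 was highest for 8 members (all but elo-4 and elo-7), and replicate 1 was lowest for 7. Over all genes tested, replicate 2 was highest for 34.8% in DCL289 and 33.04% in DCL33, and replicate 1 was lowest for 34.3% in DCL289 and 37.4% in DCL33. The coefficient of variation was larger in DCL33 for 8 of the 10 members (58.5% of all genes tested), with elo-2 at 17.1% in DCL289 and 42.4% in DCL33. The deposited bounds on each FPKM were narrower than this spread for the abundant members, with a half-width of 1.64 to 3.21% of the FPKM for elo-6, whose coefficient of variation was 19.3% in DCL289 and 27.5% in DCL33. For elo-7, the least abundant member, the half-width was 9.18 to 15.9%, against a coefficient of variation of 3.00% in DCL289 and 18.8% in DCL33.

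Several marker lists differed between the strains, and that of yolk proteins had the highest median log2 fold change. Yolk protein genes, which the adult intestine transcribes, summed to 1745 to 2160 scaled FPKM in DCL289 and 158 to 833 in DCL33, without overlap. Of 6 genes, 5 were tested (vit-2 had an estimate marked as failed in 1 library), and their median log2 fold change was 2.79. All 5 were at an unadjusted p below 0.05, against 20.7% of all genes tested. vit-1 and vit-3 rose (adjusted p = 0.0286 and 0.0466, limma), against 0.349% of all genes tested. The yolk protein genes are close relatives, so reads could be shared among them. Without vit-2 the sums were 1158 to 1414 in DCL289 and 96.6 to 544 in DCL33. The vit-1 call held in 8 of the 12 alternative settings and that of vit-3 in 4, with adjusted p up to 0.118 for vit-1 and 0.170 for vit-3. The 11 germline and oocyte markers summed to 1230 to 1300 in DCL289 and 666 to 1045 in DCL33, also without overlap. All 11 were tested, with a median log2 fold change of 0.76, 9 at an unadjusted p below 0.05 (20.7% of all genes tested) and 0 called. Taken as single genes, 27.6% of all tested did not overlap between strains. Within DCL33, replicate 3 had the lowest sum of both lists, 158 for yolk proteins and 666 for germline and oocyte markers.

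For 4 adult-stage cuticle collagens the mean log2 level was 8.69, 8.23 and 8.62 in DCL289, against 8.21, 7.27 and 6.29 in DCL33 (summed levels 1773 to 2160 scaled FPKM in DCL289 and 1402 to 1588 in DCL33), with 0 called. The log2 fold changes were 1.92 for col-19, 1.70 for col-62 and 1.61 for col-7, but -0.22 for col-63. In DCL33 replicate 3, col-63 had 1289 of the 1402 scaled FPKM. Mean log2 levels of the 9 intestinal markers in the data were 7.57, 7.71 and 7.60 in DCL289, against 7.65, 7.93 and 7.86 in DCL33. Replicate 2 was the highest of each strain, as for most members and for the epidermal and neuronal lists. Of the 9 intestinal markers, asp-1, an aspartyl protease gene, passed (lower in DCL289, adjusted p = 0.0393, limma), while 1.87% of all genes tested fell. The asp-1 call held in 4 of the 12 alternatives, with adjusted p up to 0.220. The intestinal markers summed to 4943 to 5712 scaled FPKM in DCL289 and 7328 to 8891 in DCL33, but without asp-1 to 2337 to 2634 in DCL289 and 2537 to 3156 in DCL33, which overlap. Of the 8 others, 3 had a log2 fold change above 0 and 5 below. Sperm markers summed to 3044 to 5950 in DCL289 and 2478 to 5613 in DCL33, and epidermal markers had mean log2 levels between 4.65 and 4.93 in DCL289 and between 4.66 and 5.05 in DCL33. Neither list had a called gene, nor had those of body wall muscle, pharynx and neurons, whose median log2 fold changes were 0.011, 0.012 and -0.022. The sperm sum was highest in replicate 1 of each strain. No marker was listed at 0 in any library. The part of tissue makeup or stage in the levels of the members, and of the pathway genes given further on, was not tested.

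The genes whose pattern lay closest to elo-9, the member of lowest fold change, were C26B9.5, unc-64 and acdh-11. Their mean-centred log2 levels differed from those of elo-9 by a root mean square of 0.0065, 0.026 and 0.032 over the 6 libraries, out of 14430 protein-coding genes compared. For elo-2, the member of highest fold change, the closest were slc-46A (0.051), cest-6 (0.067) and C50A2.3 (0.070). None of these 6 genes passed the test in limma, with adjusted p from 0.137 to 0.788.

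Genes around the elongases were counted by list. The rest of the elongation list, elo-8, hpo-8 and art-1, had no called gene. elo-8, a further elongase gene, had 31.0, 28.9 and 30.8 scaled FPKM in the DCL289 libraries, against 30.2, 13.7 and 16.4 in the DCL33 libraries. Replicate 1 of DCL33 lay among the DCL289 libraries, and without it elo-8 passed (log2 fold change 0.96, adjusted p = 0.0299, limma), while with all libraries it did not (0.64, SE 0.28, adjusted p = 0.256). Of 4 relatives of let-767, 2 reached the filter on level and neither passed, with stdh-1 at a log2 fold change of -0.21 (adjusted p = 0.288).

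The 16 tested genes of branched-chain amino acid breakdown had a median log2 fold change of 0.16, with 15 above 0 and 1 below. Over all genes tested the median was 0.01, and 48.6% were below 0. The members of this list were otherwise within 0.41 of 0, and 1 rose, against 0.349% of all genes tested. This was acdh-2, an acyl-CoA dehydrogenase gene. It had 2.93, 3.30 and 5.22 scaled FPKM in the DCL289 libraries, against 1.14, 0.405 and 0.280 in the DCL33 libraries (log2 fold change 1.59, SE 0.28, adjusted p = 0.0492, limma). These levels are near the floor. DCL33 replicates 2 and 3 were below the filter of 1 scaled FPKM, so acdh-2 entered the test through its DCL289 levels. Its call held in 1 of the 6 fits with a library left out, that without DCL33 replicate 1, with adjusted p up to 0.175 (without DCL33 replicate 3). It was also lost with no filter on level (0.0656), a pseudocount of 0.1 (0.0686) and the replicate number as a block (0.118). dbt-1, a subunit gene of the branched-chain ketoacid dehydrogenase named after its values were seen, was at 106, 121 and 114 in DCL289, against 88.5, 105 and 90.8 in DCL33 (adjusted p = 0.224). None of the 4 genes of fatty acid synthesis passed, and acly-2, an ATP citrate lyase gene, came closest (22.7, 25.3 and 26.2 scaled FPKM in DCL289, against 17.6, 16.3 and 16.4 in DCL33, log2 fold change 0.53, adjusted p = 0.0521, limma).

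Of 7 desaturases, which act on the same chains, 1 fell, against 1.87% of all genes tested. This was fat-5, the palmitate desaturase. It had 14.8, 12.975 and 13.5 scaled FPKM in the DCL289 libraries, against 51.9, 36.1 and 35.4 in the DCL33 libraries (log2 fold change -1.49, SE 0.16, adjusted p = 0.0138, limma). The call was lost without DCL289 replicate 1 or 3 or DCL33 replicate 2 or 3 (highest adjusted p 0.0774), and the log2 fold change was between -1.32 and -1.59 over all 12 alternatives. elo-2, which uses the same substrate, palmitate, was at a log2 fold change of 0.22. The 11 tested lipid gene regulators and 8 genes of growth signalling linked to branched-chain acids had no called gene. The lowest adjusted p in the first list was 0.172 (nhr-62, a nuclear receptor gene, log2 fold change -0.47) and in the second 0.152 (nprl-3, a negative regulator of TOR signalling, 0.36).

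Downstream of their synthesis, branched chains enter sphingoid bases, and 3 of 11 genes of long-chain base and ceramide synthesis fell: hyl-1, ttm-5 and cgt-1. Over all genes tested, 1.87% fell. Like the other lists, this one was chosen with earlier results of these data known, so the contrast with all genes is not an independent test. hyl-1, a ceramide synthase gene, had 56.7, 56.2 and 48.0 scaled FPKM in the DCL289 libraries, against 82.3, 86.5 and 87.0 in the DCL33 libraries (adjusted p = 0.0315, limma). ttm-5, a sphingolipid desaturase gene, had 18.6, 21.1 and 18.6 in DCL289, against 28.7, 37.9 and 33.7 in DCL33 (adjusted p = 0.0477), and cgt-1, a ceramide glucosyltransferase gene, 11.6, 8.64 and 6.42 in DCL289, against 23.4, 18.8 and 26.1 in DCL33 (adjusted p = 0.0491). sptl-1, a serine palmitoyltransferase gene that joins the acyl chain to serine and was named after its values were seen, had 111, 122 and 124 scaled FPKM in DCL289, against 157, 208 and 182 in DCL33, without passing (log2 fold change -0.60, SE 0.12, adjusted p = 0.0750, limma). The list's median log2 fold change was -0.25, with 9 of 11 below 0, against a median of 0.01 and 48.6% below 0 for all genes tested. The call of hyl-1 held in 5 of the 12 alternatives, and those of ttm-5 and cgt-1 in 2 each. With 1 library left out, hyl-1 and ttm-5 each passed only without DCL33 replicate 1, and cgt-1 never did (adjusted p up to 0.185). All 3 calls were also lost on FPKM as deposited (adjusted p = 0.468 for hyl-1, 0.369 for ttm-5 and 0.0779 for cgt-1) and with the replicate number as a block (0.0842, 0.0661 and 0.0988 in the same order of genes).

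**Figure D5:**
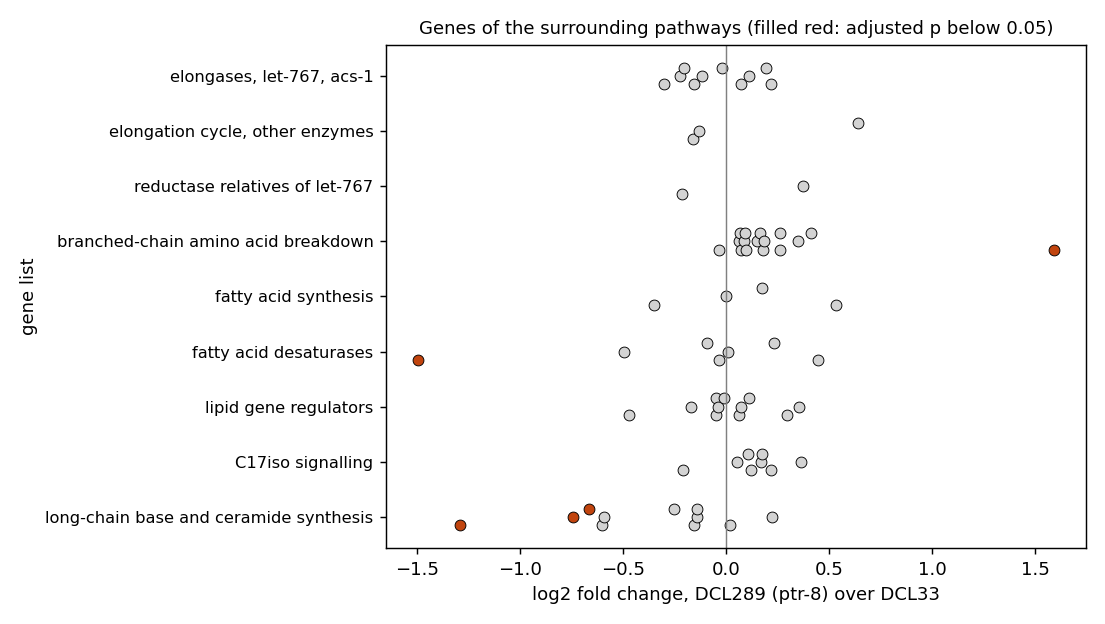
Log2 fold change, DCL289 over DCL33, of each tested gene in the elongase set and 8 surrounding lists, with called genes in red (limma, adjusted p below 0.05). The elongase set has no red point and lies between -0.30 and 0.22, while 1 gene of branched-chain amino acid breakdown lies at 1.59 and 1 desaturase and 3 ceramide synthesis genes are red on the left.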

How the data were processed

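Each library has 1 table that the authors deposited, laid out as Cufflinks writes it, with an FPKM and 2 bounds per gene, per the file headers. Tools listed in the submitters' processing notes are TopHat2, FastQC 0.11.5, DESeq2 and HTSeq, with no role given. The genome build is not given in the sources used here. Coordinates are those of the files, raised by 1 at the start. For the members they differed by at most 592 bp from the Ensembl annotation of WBcel235, which gave strands, exons, overlaps and the distances between genes. FPKM values carry no depth, so the depth is unknown.

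FPKM was divided by a trimmed mean of log ratios per library (the outer 30% of ratios and the outer 5% of levels left out on both sides). Genes needed a scaled FPKM of 1 in 3 libraries. Loci under 200 bp and 10 genes with a status other than OK in any library were left out. limma 3.58.1 (R 4.3.3, intensity trend) was fitted to log2(scaled FPKM + 1) over all 6 libraries with strain as the only term, and was tested on simulated data. Exact permutation tests used scipy 1.17.1.

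The members and lists were chosen with earlier results of these data known. Named from each list were its called genes or, with none, the gene of lowest p, and the 3 genes nearest in pattern to the members of lowest and highest fold change. Alternatives were each library left out, 3 other scalings, a fit with replicate number as a block, a pseudocount of 0.1 and no filter. The name mccc-2 was not matched, and opt-2 is not counted beside pept-1. The 12 alternatives for called marker genes, and marker sums without asp-1 or vit-2, were chosen after seeing the data.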

Additional observations from a re-analysis of the deposited data

How the results depend on the processing

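No member passed in either direction under any of the 12 alternatives. Of the 120 log2 fold changes of members under them, 111 kept their sign and 9 did not. On FPKM as deposited, which moved the median of all genes from 0.01 to 0.10, elo-3 was at 0.083. With 1 library left out in turn, values ran from -0.14 to 0.095 for elo-3, from -0.29 to 0.031 for elo-1, from -0.077 to 0.34 for elo-5, from -0.33 to 0.011 for elo-6, from -0.087 to 0.15 for elo-7 and from -0.20 to 0.041 for let-767. Without DCL33 replicate 2 the sign changed for elo-1, elo-6, elo-3, elo-7 and let-767, and without DCL33 replicate 1 for elo-5. The cause was not tested.

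The number of branched-chain amino acid genes called higher was 0 with no filter, a pseudocount of 0.1 or the replicate block, and 0 to 1 with 1 library left out. Ceramide synthesis genes called lower numbered 0 on FPKM as deposited, 1 with no filter, 1 with a pseudocount of 0.1, 0 with the replicate block and 0 to 3 with 1 library left out. Desaturases called lower numbered 0 to 1, and other elongation genes called higher 0 to 1, with 1 library left out.

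Over all genes, rises were 15.7% of calls, and 27.05% (66 higher, 178 lower) on FPKM as deposited. No filter left 192 lower. Leaving out 1 library gave 14 to 283 higher and 44 to 391 lower, and the extremes came without DCL33 replicate 1 (283 and 391), DCL289 replicate 3 (14 higher) and DCL33 replicate 3 (44 lower). The replicate block gave 25 higher and 124 lower. Same-numbered libraries correlated in their deviations from strain means by 0.25, 0.05 and 0.03, so the numbers were not taken to pair libraries. Replicate 1 of each strain correlated best with its own number, and replicates 2 and 3 of DCL289 did not. Depth is unknown, which leaves the precision of low genes such as elo-7 to the deposited bounds.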
